A study of Mus musculus with 2 samples.

Results

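The regions described here are the peaks of a Prrc2a RIP-seq experiment that lay inside the 3′ UTR of a protein-coding gene and were called in both replicates. They were chosen by the peak calls themselves. A peak of replicate 1 was taken when it overlapped a peak of replicate 2 by at least 1 bp, overlapped no annotated start or stop codon, and had its midpoint in a 3′ UTR and not in a coding sequence (CDS). This rule gave 1747 peaks in 1044 genes, out of 18129 peaks of replicate 1 in all. RIP-seq sequences the RNA that comes down with a protein, here with an antibody against Prrc2a bound to beads. The lysate was made from whole brains of wild-type C57BL/6J male mice at 4 weeks of age, the protocol names 3 mice, and both replicates carried the same treatment, so there is 1 condition and no knockout or second group. Lysates were precleared with goat IgG, and the RNA on the beads was cut with micrococcal nuclease before it was released and sequenced. The lists give, for each peak, its position and how many times the signal of the immunoprecipitate exceeded that of a control library, which is called fold enrichment or fold. Which library served as control is not given in the sources used here, and the number of reads is unknown, so the absence of a peak may reflect shallow coverage of an mRNA. In tissue with many cell types, more cells of a type and more bound RNA per cell cannot be told apart either.

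The 3′ UTR is the stretch of an mRNA between its stop codon and its poly(A) tail. It holds most of the sites by which microRNAs and RNA-binding proteins set how long an mRNA lasts, where it travels and how often it is translated, and neurons are known for long 3′ UTRs. N6-methyladenosine (m6A) is a methyl mark on adenosines of mRNA that is placed mainly in coding sequence and 3′ UTR, in a consensus whose core is GGAC and whose preferred form includes GGACT. Prrc2a is a large proline-rich protein that has been described as a reader of this mark.

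Sequences are shown first for the strongest peaks, with the m6A consensus searched because Prrc2a has been described as a reader of that mark. Of the 15 genes with the largest mean fold enrichment in a shared 3′ UTR peak, all but Fbn2 were searched. GGACT lay in the stretch covered by the peaks of both replicates in 6 of them. Over all shared 3′ UTR peaks of replicate 1, GGACT was in 40.4% of the peaks and in 35.1% of windows of equal length centred on them. It was in 30.7% of tiles of that length cut from the 3′ UTRs of all protein-coding genes. Common stretches differ in length from these, so no excess of GGACT in the strongest peaks is read from this count. For the 6 genes that held it, the site nearest to the midpoint of the peak is printed with GGACT in capitals. Sequences run 5′ to 3′ on the strand of the gene, from GRCm38 (mm10).
Trappc9: acttggcctcccGGACTccacatgggctc
Bend4: aagaagtgcagtGGACTactgatgagctg
Zbtb34: ctctggtgctgtGGACTcaggcagagagg
Cdh12: acaataagtcagGGACTtcaaaaataaaa
Slc5a3: atcatactccacGGACTaccaagtctgtc
Nkain3: tcctagacagcaGGACTgcgccccctgcc

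All 6 stretches lie in the 3′ UTR of their gene. The Trappc9 site is at chr15:72800598-72800626 on the minus strand, and its GGACT begins 522 bases after the stop codon. The Bend4 site is at chr5:67396023-67396051 on the minus strand, 3987 bases after the stop codon. The Zbtb34 site is at chr2:33409397-33409425 on the minus strand, 1558 bases after the stop codon. Apart from the motif itself these stretches differ widely in composition, from the cytosine-rich flanks of Trappc9 to the adenosine-rich flank of Cdh12. The Cdh12 site is at chr15:21587592-21587620 on the plus strand, 1123 bases after the stop codon. The Slc5a3 site is at chr16:92079871-92079899 on the plus strand, 670 bases after the stop codon. The Nkain3 site is at chr4:20122521-20122549 on the minus strand, 106 bases after the stop codon. A match of these letters is a description of the sequence. Whether the adenosine is methylated was not measured in these files. No GGACT lay in the common stretch of Cyp2u1, Tnfrsf11a, Zfp217, Hs3st3b1, Kcnb2, Oxtr, Hk2 or Bcorl1, and the sequence of Fbn2 was not searched.

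A second set of stretches is shown for genes that neuronal activity induces, whose mRNAs are known for rapid turnover through AU-rich elements. The pentamer ATTTA is the core of such elements. Of the 9 genes of that list with a shared 3′ UTR peak, 8 were searched and Egr1 was not. Bdnf, Homer1 and Egr3 held ATTTA in the common stretch, and Nr4a2, Fosb, Nr4a3, Ier2 and Arc did not. The genes printed were chosen after the values were seen. For scale, ATTTA was in 46.7% of tiles of equal length cut from the 3′ UTRs of all protein-coding genes. It was in 35.2% of windows of that length centred on the shared 3′ UTR peaks of replicate 1. Common stretches differ in length from these, so no excess of ATTTA is read from this count. ATTTA is in capitals in the lines that follow.
Bdnf: tgttgacctgagATTTAtttgttaaaatc
Homer1: ggacctagattaATTTAagtttataatta
Egr3: aatgtgatgattATTTAaaaaacacacac

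The Bdnf stretch is at chr2:109726623-109726651 on the plus strand, 2483 bases after the stop codon, and it was the single ATTTA in the common stretch. The Homer1 stretch is at chr13:93357617-93357645 on the plus strand, 1516 bases after the stop codon, and was 1 of 7. The Egr3 stretch is at chr14:70081912-70081940 on the plus strand, 2019 bases after the stop codon, and was 1 of 4.

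The enrichment of these peaks was modest in both replicates. In replicate 1 the fold enrichment of the 1747 peaks ran from 1.28 to 6.89 with a median of 1.99. In replicate 2 the overlapping peaks ran from 1.28 to 8.74 with a median of 2.65. Replicate 2 was the higher one for 1422 peaks (81.4%), and the median log2 ratio of replicate 1 to replicate 2 was -0.37 ± 0.44 (SD over 1747 peaks). Across all shared peaks of the experiment this median was -0.25. Spearman's correlation between the folds of replicate 1 and replicate 2 was 0.488 over the 1747 peaks and 0.578 over all 8372 shared peaks. These correlations are across peaks, which share their libraries and are not independent replicates. A difference of at least 2-fold between replicates was seen for 139 peaks. Peaks had a median width of 411 bp in replicate 1, with a range from 200 to 7461 bp, and of 497 bp in replicate 2. The replicates shared a median of 306 bp, a median of 87.1% of the width in replicate 1 and 73.1% of the width in replicate 2. Nearly all lay wholly within 3′ UTR exons (1721 peaks), 26 reached into an intron and 3 held a base of CDS. The lists carry no strand, so the 18 peaks over exons of more than 1 coding gene and the 48 over an exon of a non-coding gene, 41 of these on the opposite strand, have an uncertain gene of origin.

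**Figure D1:**
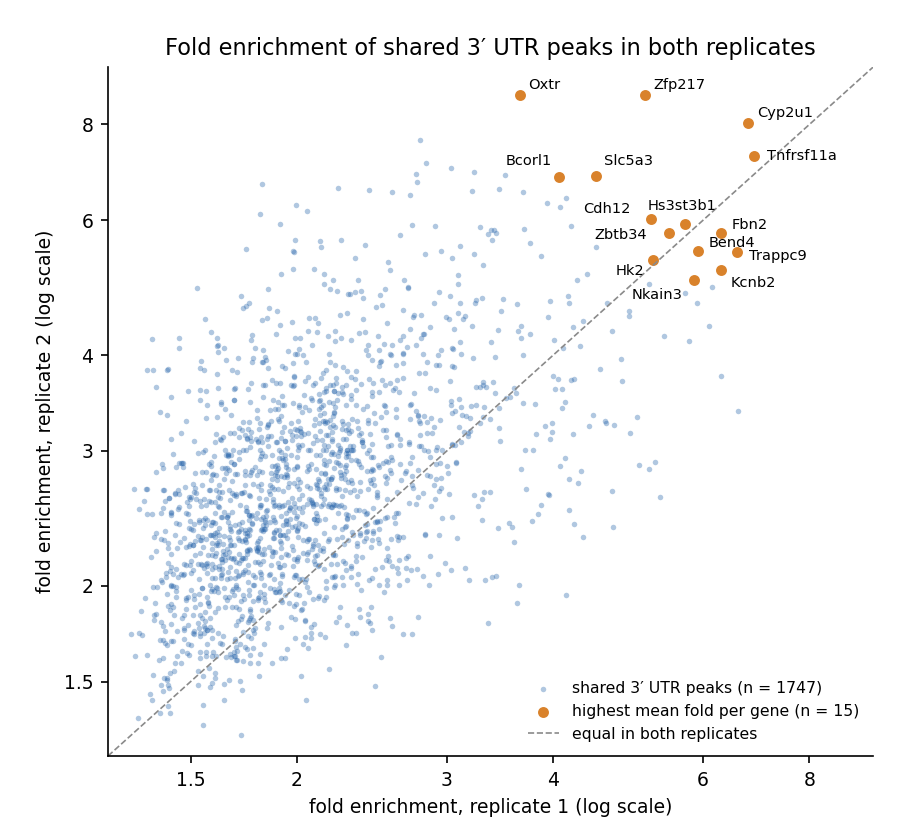
Fold enrichment of each of the 1747 shared 3′ UTR peaks in replicate 1 (horizontal) and in the overlapping peak of replicate 2 (vertical), both on log scales, with the strongest peak of the 15 genes with the largest mean fold in orange. Most points lie above the dashed line of equal fold, with medians of 1.99 and 2.65, and the named peaks lie at the upper right.

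Being shared was part of the rule, and nothing is read from the following shares. Among all replicate 1 peaks 46.2% overlapped a replicate 2 peak, and among those placed inside 3′ UTR by the same rule 1747 of 2903 (60.2%) did. From the side of replicate 2, 47.8% of all peaks were shared, and 1883 of 4327 inside 3′ UTR (43.5%) were. An overlap of 50% of both peaks was reached by 921 of the 1747 (52.7%), against 63.3% of all shared peaks. A fold of 4 or more in each replicate was reached by 45 (2.58%), against 8.95% of all shared peaks. Both shares were lower than those of all shared peaks. They come from the same peak calls as the rule, so they are descriptions without a test.

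At the edge of the rule, the smallest overlaps were 1 bp for Mettl4 (fold 2.55 in replicate 1 and 2.01 in replicate 2), 2 bp for Hs3st3b1 (5.71 and 5.93), 5 bp for Ap1g1 (1.91 and 1.97) and Zfp518b (2.23 and 2.30), and 6 bp for Lemd1 (3.84 and 2.48). Just outside lay replicate 1 peaks of Ipcef1, with 1 base between it and the nearest replicate 2 peak (1.51 and 2.49), Map6 with 5 (2.45 and 3.63), Phlpp2 with 6 (2.01 and 2.39), Kdm7a with 9 (2.24 and 2.41) and Zfp871 with 25 (1.88 and 2.79). Few peaks were close to the edge. An overlap of 20 bp or less was found for 13 members, and 4 excluded peaks were separated from a replicate 2 peak by 20 bases or fewer.

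The largest enrichment was found in genes of diverse function, none of them among the cell type markers listed further on. Cyp2u1, a fatty acid hydroxylase of the cytochrome P450 family, had a fold of 6.78 in replicate 1 and 8.03 in replicate 2. Tnfrsf11a, which encodes RANK, the receptor for the osteoclast factor RANKL, had 6.89 and 7.27. Zfp217, a zinc finger transcriptional regulator, had 5.13 and 8.74. For the first of these genes the replicate 1 peak covered 1693 bp and the replicate 2 peak 437 bp, with 423 bp in common. That replicate 2 peak was not itself placed inside 3′ UTR. With replicate 2 peaks placed, or with an overlap of 50% of both peaks, the largest mean fold of Cyp2u1 was 2.26 in place of 7.38. Trappc9, a subunit of the TRAPP vesicle trafficking complex, had 6.57 and 5.46. Fbn2, the extracellular matrix protein fibrillin-2, had 6.30 and 5.77. Hs3st3b1, a heparan sulfate sulfotransferase, had 5.71 and 5.93, but its peaks shared only the 2 bp given above, and its replicate 1 fold is a value that at least 10 peaks of that replicate hold exactly. With an overlap of 50% of both peaks, Tnfrsf11a, Trappc9 and Fbn2 had no shared 3′ UTR peak left.

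Genes of neuronal excitability and signalling stood in the same group. Kcnb2, a delayed rectifier potassium channel subunit, had a fold of 6.29 in replicate 1 and 5.16 in replicate 2, at 1280 bases into a 3′ UTR of 12121 bases. Oxtr, the oxytocin receptor, had 3.65 and 8.74, the widest gap between replicates among the 15 genes. Nkain3, which encodes a protein that interacts with the sodium pump, had 5.85 and 5.02. Its replicate 2 peak was not itself placed inside 3′ UTR by the rule, and the gene had no peak left when replicate 2 peaks were placed or an overlap of 50% was asked for. Cdh12, a brain cadherin, had 5.22 and 6.02, and its peak had a GC content of 29.9%, the lowest of the 15. Slc5a3, the sodium and myo-inositol cotransporter, had 4.49 and 6.86. Its replicate 2 peak spanned 4148 bp against 1310 bp in replicate 1, and its gene held 5 shared 3′ UTR peaks. That replicate 2 peak was not itself placed inside 3′ UTR. With replicate 2 peaks placed the largest mean fold of Slc5a3 was 4.00 in place of 5.55, and with an overlap of 50% of both peaks it was 2.88. Here a broad call in replicate 2 met a narrower call in replicate 1.

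The remaining genes act mainly in the nucleus or in metabolism. Bend4, a BEN domain protein, had a fold of 5.93 in replicate 1 and 5.47 in replicate 2. Zbtb34, a BTB zinc finger protein, had 5.47 and 5.78 over 1803 bp and 2628 bp. Hk2, a hexokinase of the first step of glycolysis, had 5.24 and 5.32. Bcorl1, a transcriptional corepressor on the X chromosome, had 4.07 and 6.82. The replicates differed by less than 1.5-fold for the first 3 of these and by more for Bcorl1. The high fold of all 15 genes is what chose them and is no finding.

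The length of the 3′ UTR separated genes with a shared 3′ UTR peak from genes without. Of 21028 protein-coding genes with an annotated 3′ UTR, 1044 (4.96%) had such a peak. The median length of the longest annotated 3′ UTR was 3337 bases in these genes, 893 bases in genes without one and 960.5 bases over all. The share of genes with a peak was 0.0594% below 500 bases (4 of 6729 genes), 1.01% from 500 to 1000 bases, 3.72% from 1000 to 2000 bases, 11.0% from 2000 to 4000 bases, 25.9% from 4000 to 8000 bases and 32.7% from 8000 bases on (50 of 153 genes). The number of peaks per kb of 3′ UTR was higher in longer classes as well, from 0.0138 between 500 and 1000 bases to 0.105 from 8000 bases on. By rule a member does not touch the stop codon, and none was narrower than 200 bp. Counted without that rule, the share of genes whose 3′ UTR was touched by any peak of 1 replicate went from 1.78% below 500 bases to 41.2% from 8000 bases on in replicate 1, and from 1.55% to 57.5% in replicate 2. Expression of the genes was not measured in these files.

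**Figure D2:**
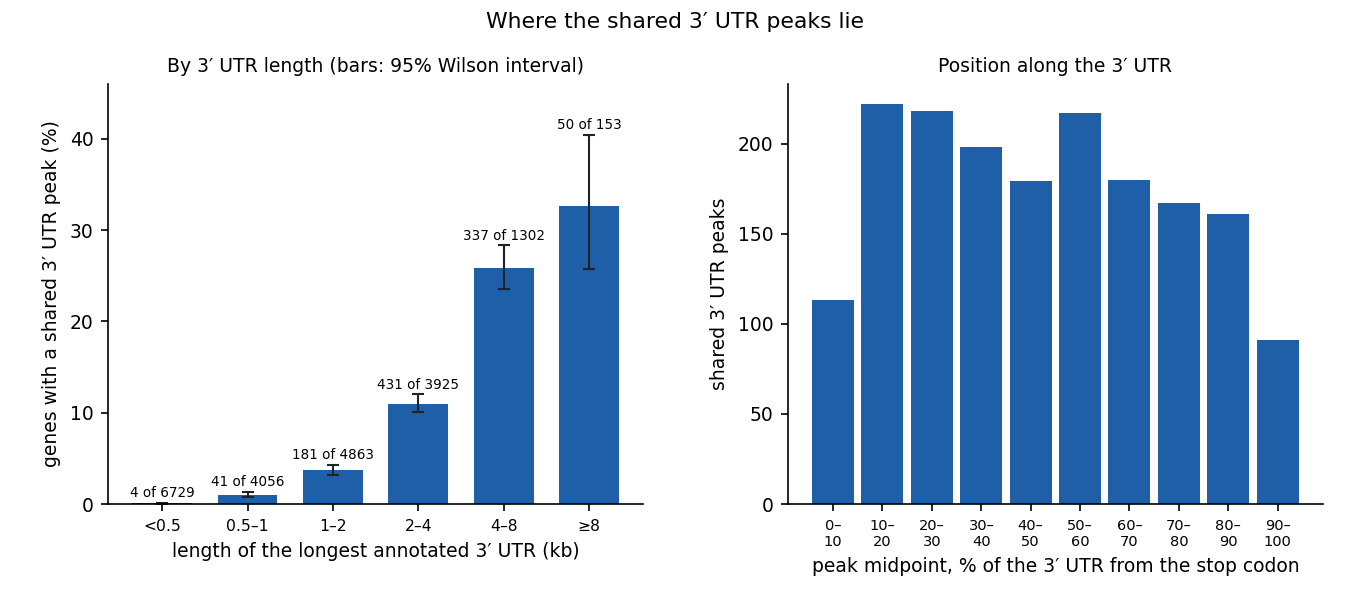
Left, the percent of protein-coding genes with a shared 3′ UTR peak by the length of their longest annotated 3′ UTR in kb, with 95% Wilson intervals that cover counting error only. Right, the number of shared 3′ UTR peaks by the position of the peak midpoint, in steps of 10% of the 3′ UTR from the stop codon. The share rises from 0.0594% to 32.7%, and the lowest numbers of peaks are in the last 10% (91) and the first 10% (113).

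The midpoints of the peaks were spread widely along the 3′ UTR. The midpoint lay a median of 1555 bases from the stop codon, between 117 and 18815 bases, and at a median of 46.8% of the 3′ UTR. In each stretch of 10% of the 3′ UTR between 10% and 90% the number of peaks lay between 161 and 222. The first 10% held 113, where peaks over the stop codon had been removed by rule, and the last 10% held 91. No peak was narrower than 200 bp, which leaves little room for midpoints next to the transcript end. With peaks over stop codons kept, the median position was 36.7%. The low numbers at both ends are therefore not read as a result. In replicate 2, placed by the same rule, the first 10% held 98 peaks and the last 10% held 114. Peaks with a midpoint more than 1000 bases past the stop codon numbered 1187, and 123 lay more than 5000 bases past it. Relative position differed between length classes without a steady trend. In 3′ UTRs below 1000 bases the median position was 51.5% in replicate 1 and 55.2% in replicate 2. It was 59.1% and 55.8% from 1000 to 2000 bases, and 48.8% and 47.6% from 2000 to 4000 bases. From 4000 to 8000 bases it was 41.1% and 41.8%, and from 8000 bases on 42.2% and 47.3%. The rule bars peaks over the stop codon, and whether this shifts the position more in short 3′ UTRs was not tested. Many genes have annotated alternatives in which the 3′ UTR ends early. Of 1018 peaks whose stop codon belongs to more than 1 annotated transcript, 639 (62.8%) lay beyond the end of the shortest of these 3′ UTRs. The stretch beyond that end made up 66.5% of the 3′ UTR bases of those transcripts.

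Most genes had a single shared 3′ UTR peak, and a few carried a series of them. There were 660 genes with 1 peak, 206 with 2, 105 with 3, 40 with 4 and 33 with 5 or more. The count depends on where a broad signal was split, since 269 of the 1747 peaks shared their replicate 2 peak with another member. Counted by distinct replicate 2 peaks, 345 genes had 2 or more, against 384 by replicate 1 peaks. Together the peaks of both replicates covered 24.5% of the 3′ UTR bases of the 1044 genes (968 of 3946 kb), and in 151 genes they covered 50% or more.

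Zbtb20, a BTB zinc finger repressor needed for hippocampal development, had the most. Its 3′ UTR of 23858 bases on chromosome 16 carried 14 peaks, from 1763 to 18815 bases past the stop codon, that overlapped 11 peaks of replicate 2. Their folds ran from 1.71 to 2.85 in replicate 1 and from 1.92 to 4.21 in replicate 2, so none was strongly enriched. Ntrk3, which encodes the neurotrophin-3 receptor TrkC, carried 8 peaks over a 3′ UTR of 16600 bases, with folds of 1.65 to 2.61 in replicate 1 and 2.29 to 4.88 in replicate 2. Strbp, a double-stranded RNA-binding protein, carried 8 over 14162 bases, with 1.47 to 4.69 and 2.07 to 3.66. The gene 1700025G04Rik carried 9 peaks in replicate 1 over 8870 bases that fell on 4 broad peaks of replicate 2. There the peaks of both replicates covered 49.5% of the 3′ UTR.

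Ago2, the slicing Argonaute protein of the microRNA pathway, carried 7 peaks from 1331 to 9391 bases past its stop codon, with folds of 1.44 to 2.37 in replicate 1 and 1.78 to 2.97 in replicate 2. Cbx5, the heterochromatin protein HP1 alpha, carried 7 with 1.41 to 1.85 and 1.49 to 2.60. Igf1r, the receptor of insulin-like growth factor 1, carried 6 with 1.62 to 2.49 and 2.33 to 4.17. In each of these genes the folds of the members overlapped between replicates. Zfp704, a zinc finger protein, carried 7 with 1.62 to 2.45 and 1.86 to 3.94, and Rnf150, a RING finger protein, carried 7 with 1.72 to 2.06 and 2.07 to 4.26. For Rnf150 every fold of replicate 2 was above every fold of replicate 1. Pcdh10, a protocadherin, carried 7 with 1.55 to 4.20 and 2.32 to 5.90, spread over transcripts with different 3′ UTRs. It is left out of the map for that reason.

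**Figure D3:**
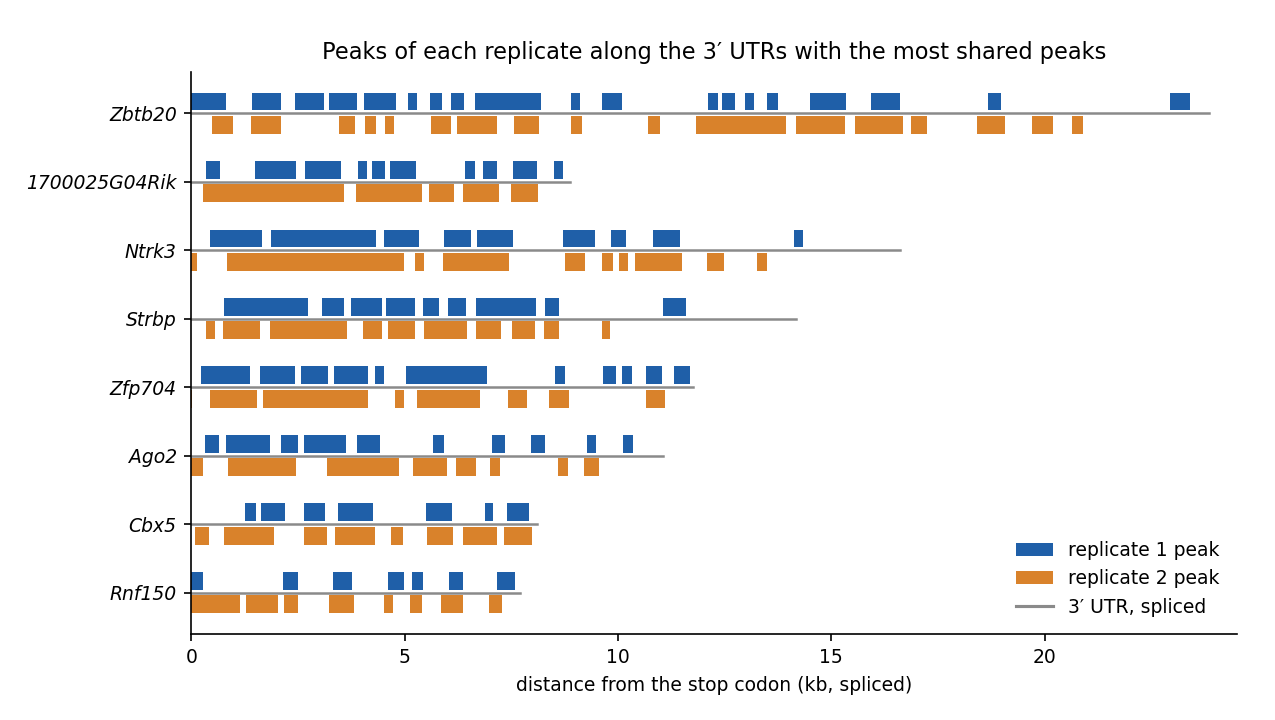
Every peak of replicate 1 (blue) and replicate 2 (orange) along the 3′ UTR (grey line) of 8 genes with the most shared 3′ UTR peaks, in kb of spliced distance from the stop codon. Peaks of both replicates recur along much of each 3′ UTR, with stretches free of peaks, as past base 11592 of the 14162 in Strbp. By the rule 14 of the Zbtb20 peaks are shared, and single broad replicate 2 peaks in 1700025G04Rik face several narrower replicate 1 peaks.

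The base composition of the peaks differed from that of other 3′ UTR sequence. Their median GC content was 47.7% in replicate 1 and 47.5% in replicate 2. The longest 3′ UTR of every protein-coding gene was cut into tiles of 410 bases, the median length of exon sequence in a peak, for comparison. Over 65840 tiles the median GC content was 43.2%, and over the 2466 tiles of the same 1044 genes that no peak of either replicate touched it was 41.7%. Around the midpoints GC content rose to a maximum in both replicates. It was 47.7% in the 50 bases after the midpoint in replicate 1 and 47.4% in the 50 before it in replicate 2. Between 300 and 350 bases downstream it was 42.6% and 42.4%, and at the same distance upstream 44.2% and 44.3%.

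**Figure D4:**
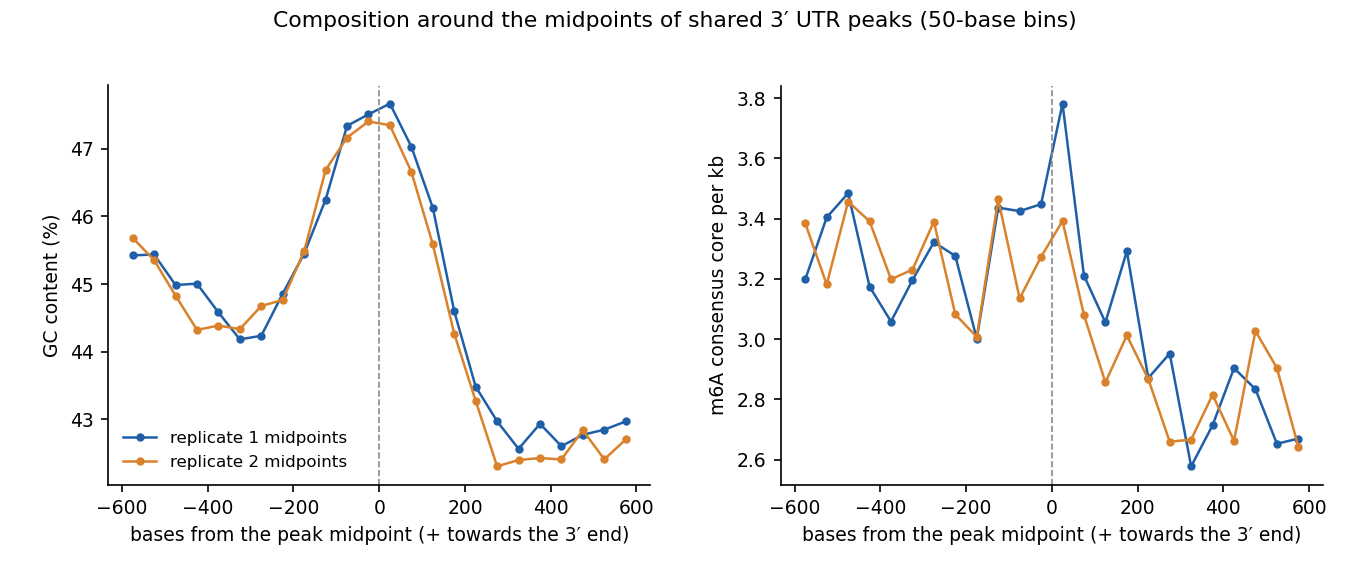
GC content in percent (left) and occurrences of the m6A consensus core per kb (right) in 50-base bins along the spliced transcript, by distance in bases from the midpoints of shared 3′ UTR peaks, for replicate 1 (blue) and replicate 2 (orange). GC content peaks at the midpoint in both replicates at 47.7% and 47.4%, whereas the core peaks at the midpoint in replicate 1 (3.78 per kb) and not in replicate 2 (3.39 per kb).

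GGAC was present in 1264 of the 1747 peaks (72.4%, 95% Wilson interval 70.2 to 74.4, which covers counting error only). In windows of 410 bases centred on the midpoints, which remove the effect of peak width, the share was 70.2% in replicate 1 and 67.3% in replicate 2. It was 65.5% in all 3′ UTR tiles and 63.3% in the untouched tiles of the same genes. GGACT, which contains GGAC, was in 35.1% of the windows of replicate 1, 33.7% of those of replicate 2, 30.7% of all tiles and 29.0% of untouched tiles. These letters are rich in G and C, as were the peaks, so the shares were also set side by side among windows of like GC content. Between 45% and 50% GC, GGAC was in 74.5% of the replicate 1 windows, 74.6% of all tiles and 74.8% of untouched tiles. Between 40% and 45% it was in 64.1%, 65.3% and 65.8%. Within both classes the intervals of replicate 1 windows and of tiles overlapped. The windows of replicate 2 held GGAC in 74.2% between 45% and 50% GC, but in 59.2% (54.1 to 64.1) between 40% and 45%, less than all tiles (64.5 to 66.1), and in 75.9% (71.6 to 79.6) between 50% and 55%, again less than all tiles (81.1 to 82.6). The density of GGAC near the midpoint differed between replicates. It was 3.78 per kb in the 50 bases after the midpoint in replicate 1, the highest of the 24 bins, and 3.39 per kb in replicate 2, where bins 100 to 150 bases and 450 to 500 bases upstream were higher (both 3.46).

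Other sequence features of 3′ UTRs moved differently. The AU-rich pentamer ATTTA was in 35.2% of the windows, 46.7% of all tiles and 51.9% of untouched tiles, and the poly(A) signal AATAAA was in 14.7%, 23.7% and 25.8%. Between 35% and 40% GC, ATTTA was in 63.1% of replicate 1 windows, 64.3% of all tiles and 65.9% of untouched tiles. Between 45% and 50% GC it was in 28.7% (24.7 to 33.1) of replicate 1 windows and 28.9% (25.2 to 33.0) of replicate 2 windows, against 33.3% (32.5 to 34.1) of all tiles and 38.2% (34.0 to 42.6) of untouched tiles, and the intervals of windows and untouched tiles did not meet. For AATAAA the shares between 35% and 40% GC were lower in the windows too. It was in 23.3% and 19.1% of the windows of replicates 1 and 2, 32.3% of all tiles and 29.3% of untouched tiles. Between 40% and 45% it was in 17.2% and 15.5%, against 23.6% and 22.3%. In both of these classes the intervals of windows lay below those of all tiles, while those of replicate 1 windows met those of untouched tiles. Windows and tiles were not matched for position in the 3′ UTR, and 117 of the 1747 midpoints lay within 300 bases of the transcript end. Whether position accounts for the lower shares of AATAAA was not tested. A run of 6 uridines is written TTTTTT in the genome. Its overall share was 31.8% in the windows, 30.1% in all tiles and 32.0% in untouched tiles. Among windows of like GC content it was higher in the peaks. Between 40% and 45% GC the share was 45.5% (40.3 to 50.8) in replicate 1 windows and 43.5% (38.5 to 48.6) in replicate 2 windows, against 32.2% (31.4 to 32.9) of all tiles and 28.3% (25.0 to 31.9) of untouched tiles. Between 35% and 40% it was 56.8% and 62.2%, against 42.2% and 45.6%. Between 50% and 55% GC the shares were 11.2% and 10.3% in the peaks and 11.7% and 11.1% in the tiles, so the difference was seen below 50% GC. Between 45% and 50% it was 29.6% in replicate 1 and 25.6% in replicate 2, whose interval (22.1 to 29.6) met that of all tiles (20.7 to 22.1). Over all GC classes, the Pumilio element TGTANATA was in 8.30% and 8.18% of the windows of replicates 1 and 2. It was in 7.70% of all tiles and 8.92% of untouched tiles. Below 35% GC these shares were 17.1%, 18.6%, 15.2% and 19.3%, and between 35% and 40% they were 15.5%, 11.6%, 10.8% and 10.7%. From 55% GC on it was in 2.03% and 1.55% of the windows and 2.44% of all tiles. Between 40% and 45% GC it was in 11.1% (8.18 to 14.8) and 9.51% (6.92 to 12.9) of the windows. It was in 7.53% (7.12 to 7.96) of all tiles there, while untouched tiles, at 7.42% (5.64 to 9.70), met both intervals. Between 45% and 50% GC it was in 7.06% (5.02 to 9.85) and 7.57% (5.59 to 10.2) of the windows of replicates 1 and 2, both above all tiles at 4.60% (4.26 to 4.98), while untouched tiles, at 3.89% (2.50 to 5.99), met both intervals. Between 50% and 55% the interval of replicate 1 windows (2.35 to 6.08) met that of all tiles (2.32 to 2.95), while replicate 2 windows, at 5.52% (3.74 to 8.08), lay above it. Adjacent windows and tiles of 1 gene are not independent, and these intervals treat them as if they were.

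**Figure D5:**
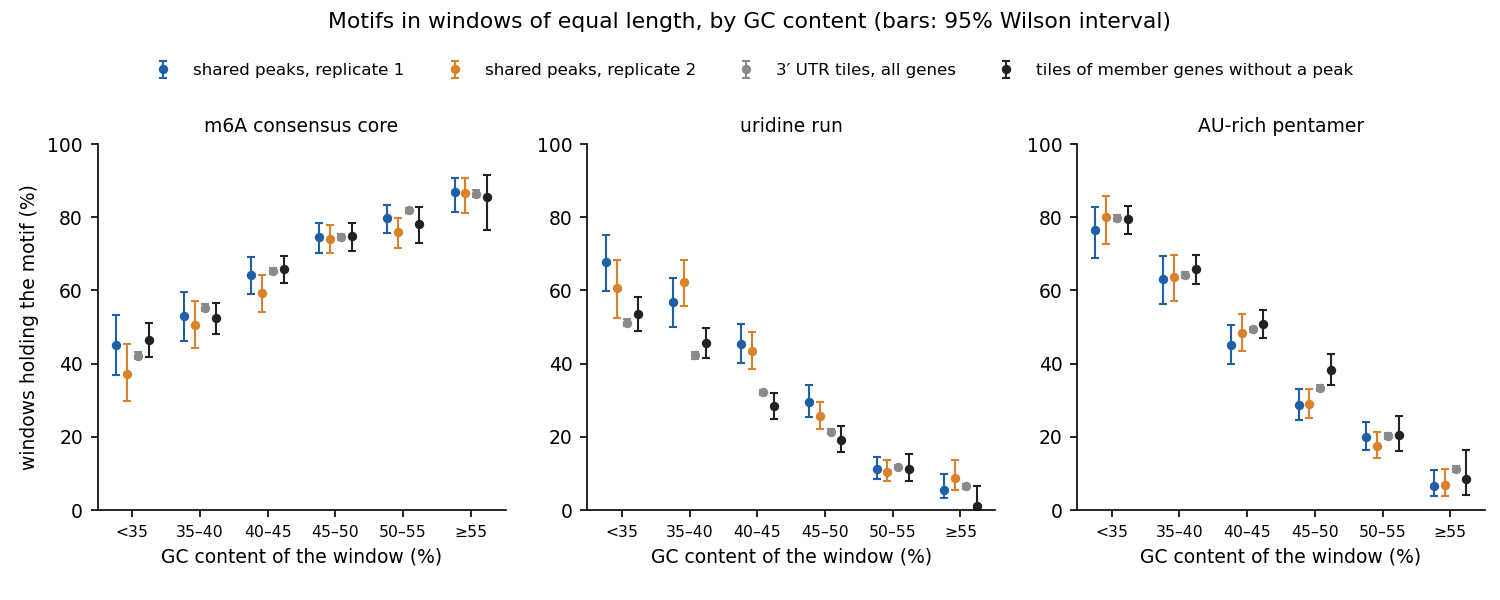
Percent of 410-base windows that hold the m6A consensus core (left), a run of 6 uridines (middle) or the AU-rich pentamer (right), by GC content of the window in percent, for windows centred on shared 3′ UTR peaks of each replicate and for 3′ UTR tiles, with 95% Wilson intervals. In none of the 6 GC classes does the interval of either replicate lie above that of all tiles for the core (74.5% and 74.6% between 45% and 50% in replicate 1 and tiles). The uridine run has higher shares in peaks than in tiles below 50% GC (45.5% in replicate 1 and 32.2% in all tiles between 40% and 45%). The interval of replicate 2 meets those of both tile sets between 45% and 50%, and that of untouched tiles below 35%.

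Sites for microRNAs that are abundant in brain were counted as matches to bases 2 to 8 of the mature sequence, the seed, on the gene strand. Of 12 microRNAs looked for, among them miR-124-3p, 11 had a mature sequence in the tables used. The 4 whose site shares differed most, in percentage points, between replicate 1 windows and untouched tiles are printed from RefSeq (GRCm38.p6), 5′ to 3′ with the seed in capitals, and were picked after the shares were known.
miR-125b-5p: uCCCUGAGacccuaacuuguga
miR-138-5p: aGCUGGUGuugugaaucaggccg
let-7a-5p: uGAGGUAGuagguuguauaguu
miR-128-3p: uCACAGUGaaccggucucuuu

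No seeds are shared among these 4. The miR-125b-5p site was in 6.19% of replicate 1 windows, 4.94% of replicate 2 windows, 4.32% of all tiles and 3.61% of untouched tiles. The miR-138-5p site was in 4.75% of replicate 1 windows, 3.75% of all tiles and 3.08% of untouched tiles. For let-7a-5p the shares were 3.26%, 2.73% and 2.11%, and for miR-128-3p 7.10%, 6.34% and 6.49%. These sites are GC-rich, like the windows, and were not split by GC content. For miR-9-5p (4.07%, 3.90% and 4.30%), miR-137-3p (3.04%, 2.88% and 2.92%) and miR-338-3p (4.30%, 4.07% and 4.30%) the shares of windows, all tiles and untouched tiles were close to each other.

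Gene groups of brain function were then read for which of their mRNAs carried a shared 3′ UTR peak. Among all protein-coding genes with a 3′ UTR the share was 4.96%, at a median 3′ UTR length of 960.5 bases. Activity-regulated genes had the highest share, 9 of 20 (45.0%), at a median length of 1208 bases. Voltage-gated ion channels followed with 13 of 33 (39.4%, median length 3439 bases), then Wnt, Notch and hedgehog signalling with 9 of 28 (32.1%, 1640.5 bases), glutamate receptors and postsynaptic scaffolds with 8 of 38 (21.1%, 2260 bases), and RNA-binding proteins that act on 3′ UTRs with 9 of 44 (20.5%, 2599 bases). Presynaptic release genes (2 of 30) and genes of the microtubule and spectrin cytoskeleton (2 of 30) each had 6.67%, and oligodendrocyte lineage and myelin genes 1 of 25 (4.00%). That 1 was Nkx2-2, a transcription factor of the oligodendrocyte lineage, with a fold of 3.81 in replicate 1 and 3.46 in replicate 2. Of 21 m6A writers, erasers and readers and Prrc2 family genes 0 had one. These are descriptions of lists of unlike length and expression, and none was tested.

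Activity-regulated genes are induced within minutes to hours of neuronal firing. Bdnf, the brain-derived neurotrophic factor, had a fold of 3.45 in replicate 1 and 3.41 in replicate 2. The peak lay 2497 bases past the stop codon of a 3′ UTR of 2855 bases, in the long form that is annotated for this mRNA. Nr4a2, an orphan nuclear receptor needed for dopamine neurons, had 2.09 and 5.18, a more than 2-fold gap between replicates, in a peak of 28.9% GC. Fosb, a subunit of the AP-1 transcription factor, had 2.64 and 3.11. Nr4a3, a relative of Nr4a2, had 2.63 and 2.49. These strongest peaks lay near the 3′ end. The midpoint was at 87.5% of the 3′ UTR for Bdnf, 87.1% for Nr4a2, 89.3% for Fosb and 79.9% for Nr4a3. In 6 of the 9 genes it lay past 75% of the 3′ UTR, where 19.5% of all members lay. Homer1, a postsynaptic scaffold with a short activity-induced form, had 2.21 and 3.38 at its strongest of 4 peaks, which at 2296 bp held 10 ATTTA and 8 GGAC. The remaining members were Ier2 (2.34 and 2.19), Egr3 (1.63 and 3.10), Egr1 (1.49 and 1.64) and Arc (1.72 and 1.28), named here outside the limit of 5 per list.

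Ion channels set the firing of neurons. Besides Kcnb2, given above, Scn3a, a sodium channel of the developing brain, had a fold of 2.94 in replicate 1 and 4.84 in replicate 2. Kcnh1, an ether-a-go-go potassium channel, had 2.54 and 2.78 over 3107 bp with 15 GGAC. Kcnq3, a subunit of the M-current channel, had 1.61 and 3.79 at the strongest of 5. Replicate 2 was the higher in 3 of these 4 genes, Kcnb2 being the exception.

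Among genes of the postsynapse, Nlgn3, a synaptic adhesion molecule of the neuroligin family, had a fold of 3.59 in replicate 1 and 3.62 in replicate 2. Its replicate 1 peak was 4499 bp wide and held 10 GGAC, where over all shared 3′ UTR peaks GGAC occurred 3.33 times per kb. Grin2a, an NMDA receptor subunit, had 2.67 and 4.24 at the strongest of 5 peaks in a 3′ UTR of 9929 bases. Grm5, a metabotropic glutamate receptor, had 2.20 and 3.47, and Nlgn1 had 2.18 and 2.30. On the presynaptic side, Pclo, the active zone scaffold piccolo, had 1.95 and 2.41, and Unc13b, a vesicle priming protein, had 1.83 and 2.40. Map6, a microtubule-stabilising protein, had 1.69 and 3.63, and Kif21b, a kinesin motor, had 1.76 and 1.98.

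The list of RNA-binding proteins held all 4 Argonaute genes among its 9 with a peak. Tnrc6b, a GW182 protein that links Argonaute to deadenylation, had a fold of 3.20 in replicate 1 and 3.44 in replicate 2 at the strongest of 5 peaks, which spanned 2975 bp and held 11 GGAC and 6 GGACT. Ago3 had 2.76 and 3.38, and Ago2 had 2.37 and 2.89 at the strongest of its 7. Nova2, a neuronal splicing factor, had 3.07 and 2.89, and Cpeb4, a cytoplasmic polyadenylation factor, had 1.92 and 2.99 at 92.4% of its 3′ UTR. The other members were Ago1, Ago4, Elavl1 and Tnrc6c, which are named here outside the limit of 5 per list. Ago1, Ago3 and Ago4 are neighbours on chromosome 4 but their peaks lie in separate 3′ UTRs.

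Developmental signalling genes included receptors and a ligand. Gli3, a transcription factor of hedgehog signalling, had a fold of 6.59 in replicate 1 and 3.39 in replicate 2. Wnt5a, a secreted ligand, had 3.11 and 4.68. Lrp6, a Wnt coreceptor, had 2.13 and 5.54, and Fzd3, a Wnt receptor, had 3.04 and 3.49. Ptch1, the hedgehog receptor, had 2.64 and 2.32 at the strongest of 5 peaks. The order of the replicates was not the same across these genes, with Gli3 and Ptch1 higher in replicate 1.

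Markers that define the cell types of the brain carried none of these peaks. This was so for 7 markers of neurons, 6 of astrocytes, 10 of the oligodendrocyte lineage, 5 of microglia and 4 of endothelium. Over all protein-coding genes with a 3′ UTR the share with a peak was 4.96%. The upper ends of the Wilson intervals of the marker sets lay between 27.8% and 49.0%, above that share. These sets are therefore too small to show whether markers carry fewer peaks than other genes. Some markers were touched in a single replicate: 4360 of the 9250 bases of the Slc1a2 3′ UTR lay under replicate 2 peaks and 0 under replicate 1 peaks. Csf1r, a microglial marker, was touched in both replicates, over 283 bases in replicate 1 and 444 in replicate 2 of its 1669-base 3′ UTR, by peaks that were not members. The peak lists hold no expression levels, so they do not show whether these mRNAs were present, and the labelled tissue was not checked in that way. In the gene lists that the study assigned to cell types, 26 of 480 oligodendroglial genes (5.42%), 45 of 465 astrocytic genes (9.68%) and 47 of 472 neuronal genes (9.96%) had a shared 3′ UTR peak. By fold, the first of the oligodendroglial genes were Fbn2, given above, Sox6, a transcription factor that holds back oligodendrocyte maturation (2.84 in replicate 1 and 7.13 in replicate 2, the strongest of 6 peaks), and Dscam, a neural adhesion molecule (3.69 and 4.01). Among astrocytic genes, Fzd10, a Wnt receptor, had 5.71 and 4.82, and among neuronal genes Prokr2, a prokineticin receptor, had 6.31 and 3.76.

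Peaks inside 3′ UTR differed from shared peaks elsewhere in the mRNA. Their median fold was 1.99 in replicate 1 and 2.65 in replicate 2, against 2.33 and 2.78 over stop codons, 2.30 and 2.74 inside CDS, and 2.36 and 2.77 inside 5′ UTR. The 3′ UTR had the lowest median of these in both replicates. With 2 replicates and members chosen by the same calls, no test was run, and the gap to CDS was wider in replicate 1 than in replicate 2. GGAC occurred 3.33 times per kb in replicate 1 and 3.27 in replicate 2, against 4.50 and 4.79 over stop codons and 5.11 and 5.27 inside CDS, where GC content was higher (median 53.9% and 54.2%). Genes overlapped in part. Of the 1044 genes, 433 also had a shared peak over a stop codon (41.5% of the 1044 and 48.8% of the stop codon genes), and 490 had one inside CDS (46.9% and 37.1%). No shared peak over start codons, stop codons, CDS or 5′ UTR was found in 254 genes (24.3%).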

How the data were processed

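Prrc2a RIP-seq peaks were analysed for 2 replicates of mouse whole brain. The deposited lists were made by the authors in each replicate separately. Reads were aligned to mm10 and peaks were called with MACS2 at a false discovery rate threshold. The submitters' processing notes name TopHat2 2.0.9 and MACS2 2.0.10. The values the authors deposited are the start and end of each peak, other numbers that serve as positions, and the fold enrichment, a linear ratio. Read depth is unknown, the lists give no strand or false discovery rate for a peak, and the replicates are biological by the study's account, though the labels do not say how the mice were divided between them.

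From these lists, peaks were placed with GENCODE M21 on GRCm38, whose sequence was read with pysam 0.24.0 and samtools 1.23.1 under Python 3.11.15. Each peak was given to the coding gene with the most exon bases under it. The mean fold of a member is the geometric mean of its replicate 1 peak and of the replicate 2 peak sharing the most bases. Position was measured along the spliced transcript with the longest 3′ UTR at the midpoint. Letters were searched on the gene strand only. The genes named are the 15 with the largest mean fold, the 10 with the most peaks, up to 5 per list by mean fold, and the 5 peaks on each side of the overlap threshold, with any exception stated where it occurs. Of the genes this rule names, 1 is not reported here. The study's cell type lists were matched by Ensembl identifier. Members and lists were chosen with earlier results of these data known. No test was run, since there is 1 condition and the peak calls chose the members. The functions were checked on simulated data, where 6 of 6 quantities were recovered exactly. Alternatives changed 1 choice at a time (overlap, fold, replicate placed, annotation, stop codon peaks, motif), and 1 of them, windows of the tile length, was added after seeing the data. Figures were drawn with matplotlib 3.10.9.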

Additional observations from a re-analysis of the deposited data

How the results depend on the processing

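Of 57 summary values under an alternative, 34 stayed within the spread (1.5 times for counts, 1 SD of the replicates for other values) and 23 moved. With an overlap of 50% of both peaks there were 921 peaks, at a median position of 47.8% of the 3′ UTR, and 68.9% held GGAC. With a fold of at least 4 in both replicates there were 45 peaks in 39 genes, with a median fold of 4.98, a position of 45.9%, GGAC in 88.9% and a GC content of 44.5%. With peaks over stop codons kept, the position was 36.7%, 76.2% held GGAC and the GC content was 48.6%. GGACT in place of GGAC was in 40.4%, and GGAC within 50 bases of the midpoint in 29.8%. Windows of 410 bases, an alternative chosen after seeing the data, gave 70.2% for GGAC, within the spread. Using all peaks of 1 replicate (leaving out the other) gave 2902 to 4327 peaks, 1550 to 2330 genes, a median fold of 2.09 to 2.36, a position of 47.8% to 48.6%, GGAC in 66.0% to 69.2% and a GC content of 47.5% to 48.3%. The causes of these changes were not tested. The 2902 leave out 1 of the 2903 replicate 1 peaks inside 3′ UTR, to which no coding gene was given. Of 206 values of named genes under alternatives 179 stayed within the same limits and 27 moved. Cases where a gene was left with no such peak gave no value and are not among the 206. A fold filter keeps the strongest peaks, so it could hardly change the largest mean folds. The limits for folds rest on 2 replicates and were wide for some genes, as for Zfp217 (6.69, and 4.91 with an overlap of 50%, SD 2.55). Among the values that moved were those of Cyp2u1 (mean fold 7.38, and 2.26 with an overlap of 50% or replicate 2 peaks placed) and Slc5a3 (5.55, and 2.88 with an overlap of 50%). The number of peaks of all 10 genes with the most moved too. With an overlap of 50% it was 6 in Zbtb20 and 1 to 4 in the other 9. With an overlap of 50% of both peaks, Tnfrsf11a, Fbn2, Trappc9, Nkain3, Hk2 and Bcorl1 had no shared 3′ UTR peak left and gave no value. Nkain3 also gave none with replicate 2 peaks placed or with replicate 1 left out. Oxtr gave none with a fold of at least 4 in both replicates, and Trappc9 and Bcorl1 none with the whole peak inside 3′ UTR exons. No paired analysis was possible because there is a single group of samples. Unknown read depth limits what the absence of a peak can show.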

Other observations

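Peaks inside 3′ UTR that were called in a single replicate were not members of the set described above. In replicate 1 there were 1156 of them in 830 genes, 324 of which also had a shared 3′ UTR peak. Their median fold was 2.27, above the 1.99 of the shared peaks of that replicate, and their median width was 292.5 bp. In replicate 2 there were 2444 in 1610 genes, 358 of which also had a shared one, with a median fold of 2.15, below the 2.65 of the shared peaks, and a median width of 305 bp. The order of shared and unshared folds was therefore opposite in the replicates. A fold that at least 10 peaks of replicate 1 held exactly was found in 12.6% of the unshared and 1.89% of the shared 3′ UTR peaks, and in 24.8% of all replicate 1 peaks. Of these narrower peaks, 64.3% in replicate 1 and 62.3% in replicate 2 held GGAC.

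Repeat-masked sequence made up a median of 9.53% of a shared 3′ UTR peak, and 26 peaks were more than 50% repeat-masked. Across the 1747 peaks mean fold had a Spearman correlation of 0.231 with width, 0.101 with distance from the stop codon and -0.101 with GC content. These are descriptions across peaks that share their libraries.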
